A study of Mus musculus with 16 samples.

Results

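Apolipoproteins are the proteins that coat lipid particles in blood. The 10 apolipoprotein genes described here are Apoa1, Apoa2, Apoa4, Apoa5, Apob, Apoc1, Apoc2, Apoc3, Apoe and Apom, each taken from the liver table by its gene symbol. Each symbol matched 1 row of the 15544 gene rows, and all 10 genes passed the filter on low values that left 12704 genes for testing. Liver RNA was sequenced in bulk from 16 female mice aged 27 weeks, 4 in each of 4 groups. Control mice carried Esr1fl/fl, a floxed gene for oestrogen receptor alpha. Mutant mice were Esr1Nkx2-1Cre, in which a Cre recombinase driven by Nkx2-1 removes this receptor from part of the hypothalamus. Bone mass is high in such females on a standard diet, and the authors report that a high-fat diet reversed this. All mice thus carried floxed Esr1, and the deletion lies in the brain, so Esr1 in liver does not check the genotype labels. Mice of each genotype were kept on standard chow or on a high-fat diet (HFD) for 17 weeks, and the background was mixed CD-1 and 129P2. The design asks how genotype, diet and their combination relate to liver transcripts.

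The liver is the main source of most apolipoproteins. Apob is the structural protein of very-low-density lipoproteins, and Apoa1 and Apoa2 are the chief proteins of high-density lipoproteins (HDL). The small exchangeable proteins adjust how particles are used: Apoc2 activates lipoprotein lipase, Apoc3 and Apoc1 restrain particle clearance, Apoa5 promotes triglyceride hydrolysis, and Apoe binds the receptors that take up remnants. Apom carries sphingosine-1-phosphate on HDL. Apoa4 is made mostly by the intestine during fat absorption, and in mouse liver it is also made and is known to rise in fatty liver, with Creb3l3 and Hnf4a among its known regulators.

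Of these 10 genes, 7 lie in 2 clusters. In GRCm38 (mm10, GENCODE M21), the chromosome 9 cluster spans 43340 bases and holds Apoa1 (46228580 to 46230466, plus strand), Apoc3 (46232933 to 46235636, minus strand), Apoa4 (46240696 to 46243459, plus strand) and Apoa5 (46268633 to 46271919, plus strand). The chromosome 7 cluster spans 27610 bases, all on the minus strand, and holds Apoc2 (19671579 to 19677941), Apoc1 (19689481 to 19692660) and Apoe (19696109 to 19699188). The neighbouring Apoc4 (19678083 to 19681479) is an additional apolipoprotein of that cluster outside the list of 10. The others stand apart, with Apoa2 on chromosome 1 (171225054 to 171226379), Apob on chromosome 12 (7977648 to 8016835) and Apom on chromosome 17 (35128997 to 35132050). All 10 are annotated as protein-coding. An antisense gene overlaps Apoa4, another lies within Apoa5, and a longer annotated gene overlaps Apoc2 and Apoc4. Because use of strand in the quantification was not given in the sources used here, reads of such pairs may not have been kept apart.

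Promoter sequence was found for 8 of the 10 genes in a RefSeq table of GRCm38.p6. The windows below are shown for Apoa4, whose levels differed between the diets, for its cluster neighbours Apoa5 and Apoa1, and for Apoc2 and Apoe of the chromosome 7 cluster, whose levels set 4 HFD libraries apart. Each holds the 100 bases before the most upstream start in RefSeq or GENCODE, written 5′ to 3′ on the strand of the gene. Capitals mark matches on either strand to the letters CAAAG (part of the elements that Hnf4a binds) and TATAAA.
Apoa4, chr9:46240596-46240695: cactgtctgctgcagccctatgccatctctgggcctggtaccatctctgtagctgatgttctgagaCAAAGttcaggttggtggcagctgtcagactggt
Apoa5, chr9:46268508-46268607: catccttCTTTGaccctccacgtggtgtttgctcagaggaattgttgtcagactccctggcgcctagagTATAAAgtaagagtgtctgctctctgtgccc
Apoa1, chr9:46228480-46228579: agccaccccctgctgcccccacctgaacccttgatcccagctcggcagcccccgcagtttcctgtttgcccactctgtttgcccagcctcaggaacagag
Apoc2, chr7:19677942-19678041: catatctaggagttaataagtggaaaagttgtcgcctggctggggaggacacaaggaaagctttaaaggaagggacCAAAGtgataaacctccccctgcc
Apoe, chr7:19699189-19699288: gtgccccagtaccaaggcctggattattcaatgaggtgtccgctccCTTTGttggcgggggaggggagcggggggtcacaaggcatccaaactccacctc

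Of the 7 genes with a full window, 5 hold CAAAG or its reverse complement, namely Apoa4, Apoa5, Apoc2, Apoe and Apob, while Apoa1 and Apoa2 do not. The same letters are in 21.6% of all 32851 promoters in the 100 bases directly before the start, and in 24.7% in the 100 bases farthest from it. The Apoa4 window ends 148 bases before the RefSeq start, because GENCODE starts that gene farther upstream. TATAAA stands in the Apoa5 and Apob windows and in 5.56% of all promoters. The other letters searched were AGGTCA (in 5.88% of all promoters), TGACG (10.5%) and GCCAAT (7.88%), of which TGACG stands in the Apoa2 window and the others in none of the 7. Such matches are a description of the sequence only.

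The 10 genes were among the more abundant transcripts of the liver. Values are on the TPM scale, which corrects for transcript length so that levels of different genes can be compared. By the mean over 16 libraries, Apoa2 was second among all genes, Apoe was 3rd, Apoc1 was 5th, Apoc3 was 12th and Apoa1 was 16th. Apoa4 was 64th with a mean of 1732, followed by Apoa5 (94th, 1198), Apob (137th, 889.1) and Apoc2 (229th, 557.2), and Apom was the least abundant of the 10 (379.2). Together the 10 genes made up 9.90% ± 1.52 of the summed signal in chow-fed control mice and 9.37% ± 2.13 in chow-fed mutants (SD, n = 4). On HFD they made up 13.0% ± 3.22 in controls and 10.9% ± 2.66 in mutants. The HFD shares split by the title numbers described below, with both genotypes on each side. Control mice 1, 2 and 3 and mutant mouse 1 had 13.8%, 15.2%, 14.9% and 14.8%. Control mouse 4 and mutant mice 2, 3 and 4 had 8.29%, 8.78%, 9.75% and 10.3%, within the chow range of 6.17% to 12.2%. The lowest share, 6.17%, was in mutant mouse 2 on chow, and the highest, 15.2%, was in control mouse 2 on HFD.

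Hepatocyte identity was plain from its markers, since all 13 listed hepatocyte genes had rows and their summed values were 85900 to 123000 in every library. Column totals ran from 905897 to 1119703, and the depth behind the values is unknown. In 4 HFD libraries the numbers in the titles are lower than in the other 4. The lower-numbered HFD libraries are control mice 1, 2 and 3 and mutant mouse 1, and the higher-numbered are control mouse 4 and mutant mice 2, 3 and 4. The labels do not say what the numbers stand for. The chow titles also form a lower run (control mice 1 and 2, mutant mouse 1) and a higher run (control mice 3 and 4, mutant mice 2, 3 and 4). Each run lies within 1 diet, so diet and run cannot be told apart. Mutant mouse 2 on chow stood apart, with a summed acute-phase gene value of 128000 against 11300 to 31100 in the other libraries. In bulk tissue, fewer cells of a type and less RNA per cell cannot be told apart.

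Apoa4 was higher on HFD than on chow in both genotypes. In control mice on chow its values were 1143, 810, 774 and 792. In control mice on HFD they were 2145, 2329, 2523 and 2023. Every control mouse on HFD was thus above every control mouse on chow, an order that was not counted over all genes. In mutant mice on chow the values were 1649, 916, 1726 and 1404, and in mutant mice on HFD they were 2187, 2164, 1912 and 3210. All 8 HFD libraries (lowest 1912) lay above all 8 chow libraries (highest 1726), in both runs of title numbers. Among all tested genes 13 showed this separation, or 0.102%, and Apoa4 was the only one of the 10 apolipoproteins to do so.

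**Figure D1:**
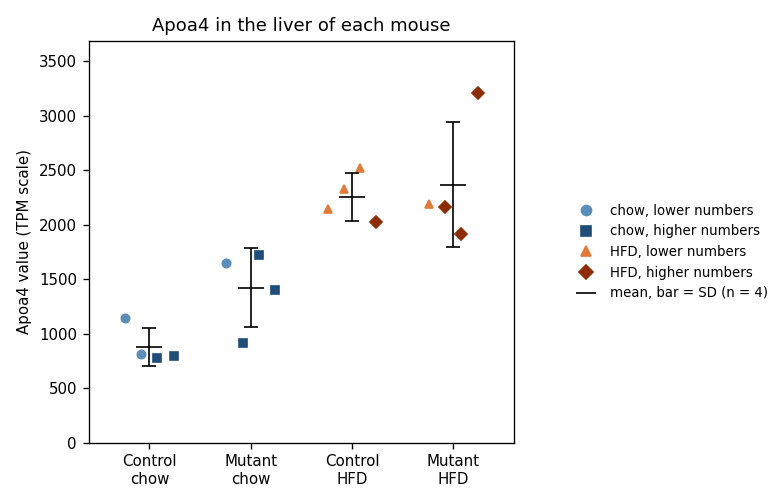
Apoa4 values on the TPM scale (vertical axis, from 0) in the 4 groups (horizontal axis), with 1 point per mouse, shaped by the run of title numbers, and the mean with SD (n = 4). The 8 HFD points lie between 1912 and 3210 and the 8 chow points between 774 and 1726, and on chow the mutant mean lies above the control mean.

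Averaged over genotypes, Apoa4 was 2.08-fold higher on HFD (log2 fold change 1.06 ± 0.148 SE, adjusted p = 0.0189, limma with Benjamini-Hochberg adjustment over 12704 genes). It was the only one of the 10 genes called in this comparison, in which 17 genes, or 0.134%, were called, and it ranked second of all genes by p. Within controls the increase was 2.59-fold (1.37 ± 0.210 on the log2 scale, adjusted p = 0.0842), the smallest p of any gene in a comparison that called none (0.0%, with 1641 genes at an unadjusted p under 0.05). Within mutants it was 1.68-fold (0.75 ± 0.210, adjusted p = 0.539), where again 0.0% of genes were called and 872 had an unadjusted p under 0.05. An exact two-sided permutation test of the log2 values gave p = 0.0286 for each genotype, the smallest that 4 against 4 mice allow, and 0.0571 after adjustment over the 4 comparisons of Apoa4. The average diet difference ran from 0.96 to 1.13 on the log2 scale over 25 other settings, but its call was lost without control mouse 4 on chow (adjusted p = 0.0534), control mouse 2 on HFD (0.0505) or mutant mouse 2 on HFD (0.0525). It was also lost without the 4 lower-numbered HFD libraries, where the difference was 1.00 (adjusted p = 0.109, 0.0787% of genes called).

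On chow, Apoa4 was higher in mutants than in controls by 1.59-fold on average (log2 fold change 0.67 ± 0.210 SE), with means of 1424 ± 365 and 880 ± 176 (SD, n = 4). The groups overlapped in 1 place, since control mouse 1 (1143) was above mutant mouse 2 (916). Within the lower-numbered chow libraries the mutant (1649) was above both controls (1143 and 810), and within the higher-numbered ones all 3 mutants (916 to 1726) were above both controls (774 and 792). These are 1 against 2 and 3 against 2 mice, and how many other genes showed such an order was not counted. The difference did not pass the test over all genes (adjusted p = 0.677, with limma calling 0.0236% of genes and 772 at an unadjusted p under 0.05), and the exact permutation p was 0.0571. With the run of title numbers as a term the difference was 0.75 (adjusted p = 0.431). Without mutant mouse 2, the mouse with high acute-phase genes, it was 0.87 (adjusted p = 0.517).

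On HFD the Apoa4 groups overlapped, with means of 2255 ± 218 in controls and 2369 ± 575 in mutants. The highest mutant value, 3210 in mouse 4, and the lowest, 1912 in mouse 3, were both outside the control range of 2023 to 2523. The log2 difference was 0.05 ± 0.210 (adjusted p = 0.954, limma), the exact permutation test of Apoa4 did not pass, and 0.0157% of genes were called in this comparison. The diet difference was smaller in mutants than in controls by 0.62 ± 0.297 on the log2 scale. This interaction did not pass the test (adjusted p = 0.895), and limma called 0.0% of genes, with 535 at an unadjusted p under 0.05. Averaged over diets, Apoa4 was 0.36 ± 0.148 higher in mutants (adjusted p = 0.513), where 0.063% of genes were called. The comparisons on the same 4 mice share those libraries and are not independent.

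The neighbours of Apoa4 on chromosome 9 did not show its separation by diet. Apoa1 was 12739, 5649, 6527 and 5471 in control mice on chow and 9819, 9516, 8527 and 7180 on HFD. In mutants it was 6872, 6560, 7738 and 7563 on chow and 8463, 8524, 8172 and 6091 on HFD. Control mouse 1 on chow was the highest of all 16, and the diets overlapped widely. The average diet difference of Apoa1 was 0.20 ± 0.168 on the log2 scale (adjusted p = 0.601). Within a library, the ratio of Apoa4 to Apoa1 was 0.0898 to 0.145 in chow-fed controls and 0.140 to 0.240 in chow-fed mutants. In the 8 HFD libraries it was 0.527 in mutant mouse 4, whose Apoa1 was low, and 0.219 to 0.296 in the others. The ratios of HFD mice and chow-fed mutants thus overlapped.

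Apoc3, transcribed from the opposite strand between Apoa1 and Apoa4, was 10299, 7917, 7618 and 7700 in controls on chow and 10392, 14294, 13056 and 7332 on HFD. In mutants it was 9562, 5577, 10504 and 10842 on chow and 11934, 8663, 9890 and 9606 on HFD. The lowest value of all was that of mutant mouse 2 on chow, and on HFD the lowest was control mouse 4. The lower-numbered HFD libraries held 10392 to 14294 and the higher-numbered 7332 to 9890. With genotype in the fit this was 1.47-fold (adjusted p = 0.109, limma), in a comparison that called 25.2% of all genes. The average diet difference of Apoc3 was 0.28 ± 0.174 (adjusted p = 0.481). Apoa5 was 1260, 579, 1413 and 939 in chow-fed controls and 1306, 1587, 1449 and 1043 in HFD-fed controls. The corresponding mutant values were 1050, 843, 1237 and 1029 on chow and 1220, 1461, 1448 and 1299 on HFD. The diets overlapped, since control mouse 3 on chow was above 4 of the 8 HFD mice. The average diet difference was 0.41 ± 0.162 (adjusted p = 0.280, limma).

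**Figure D2:**
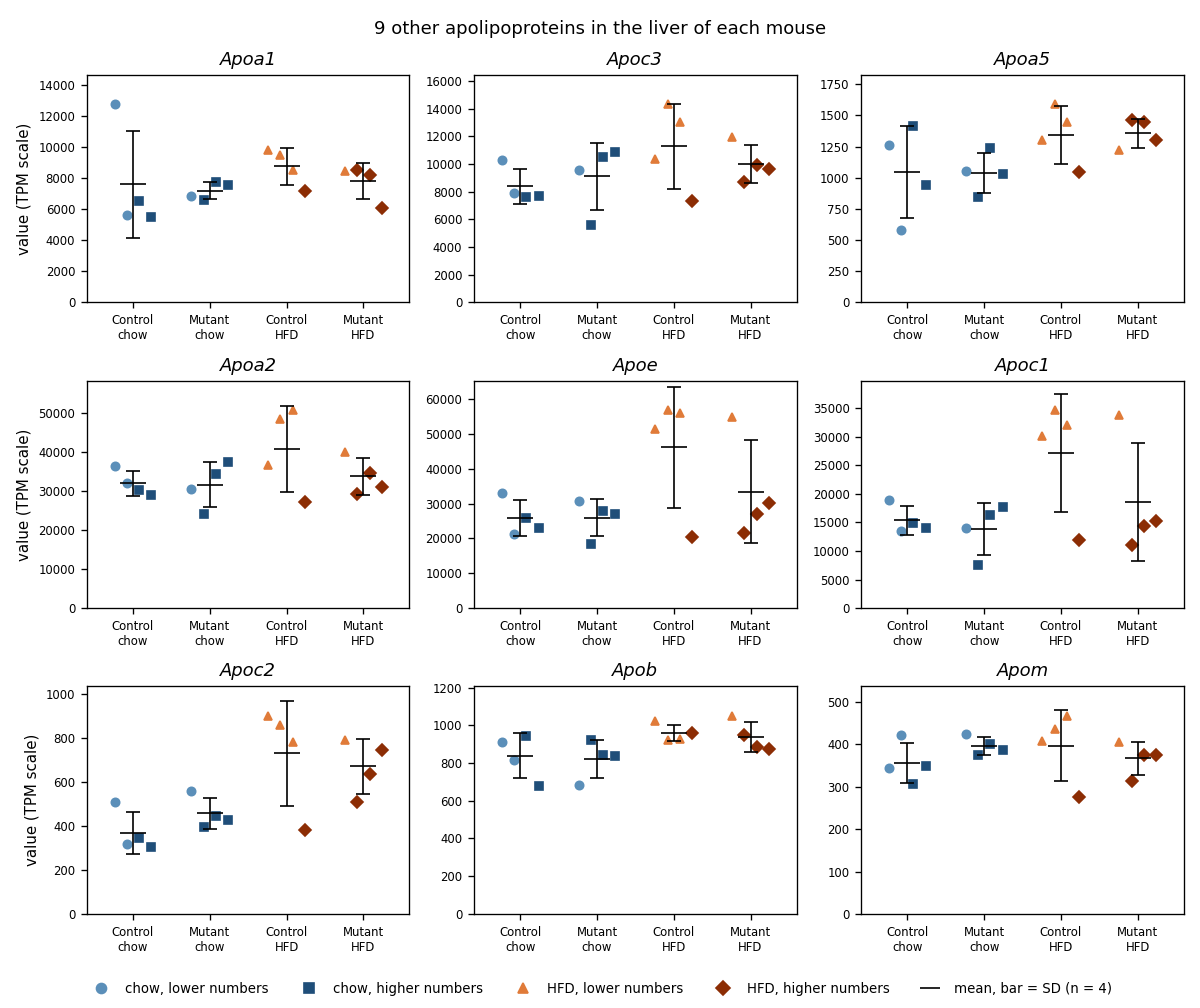
Values on the TPM scale (vertical axes, each from 0) of the 9 other apolipoproteins in the 4 groups (horizontal axes), with 1 point per mouse, shaped by the run of title numbers, and the mean with SD (n = 4). Apoe, Apoc1 and Apoc2 are high in the 4 lower-numbered HFD libraries (triangles), while Apoa1 has 1 high control mouse on chow at 12739.

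The chromosome 7 genes followed another pattern than Apoa4, with a split by title numbers on HFD larger than that of Apoc3. Apoe was 32938, 21398, 25768 and 22988 in controls on chow and 30729, 18267, 27825 and 26922 in the chow-fed mutants. HFD-fed controls had 51297, 56760, 56032 and 20323, and HFD-fed mutants had 54878, 21617, 26878 and 30177. The 4 lower-numbered HFD libraries, with mice of both genotypes, lay between 51297 and 56760, and the other 12 libraries lay between 18267 and 32938. Control mouse 4 on HFD was thus the lowest of all HFD mice, and it was below 7 of the 8 chow mice.

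Apoc1 repeated this split. The lower-numbered HFD libraries held 30060, 34601 and 31972 in controls and 33701 in the mutant, while the higher-numbered held 11944 in the control and 10995, 14303 and 15172 in mutants. On chow it was 18956, 13455, 14925 and 13972 in controls and 13962, 7509, 16331 and 17651 in mutants. Apoc4 lay between 2625 and 3335 in the lower-numbered HFD libraries and between 975 and 2045 elsewhere. Within a library the ratio of Apoc1 to Apoe stayed between 0.411 and 0.656, although Apoe itself ranged 3.11-fold.

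Apoc2, the lipase activator, was split in the same direction but less widely, at 781 to 900 in the lower-numbered and 380 to 744 in the higher-numbered HFD libraries. The ratio of Apoc2 to Apoe was 0.0139 to 0.0176 in the lower-numbered and 0.0187 to 0.0246 in the higher-numbered ones. The diet difference of Apoc2 did not pass the test in any unweighted comparison of all libraries. When libraries were weighted, as described below, Apoc2 was called for diet on average and within controls. It was 510, 319, 347 and 304 in controls and 559, 397, 445 and 429 in mutants on chow. On HFD it was 900, 860, 781 and 380 in controls and 793, 509, 637 and 744 in mutants. Of the 8 HFD values, 6 were above the highest chow value, and control mouse 4 and mutant mouse 2 were not. The average diet difference was 0.74 ± 0.177 on the log2 scale (1.67-fold, adjusted p = 0.102, limma). It was 0.93 ± 0.250 within controls (adjusted p = 0.202) and 0.54 ± 0.250 within mutants (adjusted p = 0.723). On chow Apoc2 was 0.33 ± 0.250 higher in mutants (adjusted p = 0.947).

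With genotype in the fit, the lower-numbered HFD libraries had 2.38-fold more Apoe (log2 difference of the higher-numbered from the lower-numbered -1.25 ± 0.241, adjusted p = 0.00276, limma). Apoc1 was 2.61-fold higher (-1.38 ± 0.284, adjusted p = 0.00410), Apoc2 was 1.68-fold higher (-0.75 ± 0.199, adjusted p = 0.0159) and Apom was 1.34-fold higher (-0.43 ± 0.123, adjusted p = 0.0238). Apoc4 was 2.33-fold higher (adjusted p = 0.00209). These 4 of 10 genes stand beside 25.2% of all tested genes called in the same comparison, and Apoa4 was not among them (-0.04 ± 0.233, adjusted p = 0.913). Between the chow runs none of the 10 passed, 0.0% of genes were called, and the smallest adjusted p of the 10 was that of Apoc2 (0.489). This comparison was added after the values had been seen.

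The diet and genotype differences of the chromosome 7 genes therefore depended on which HFD libraries were compared. The average diet difference was 0.52 ± 0.250 for Apoe (adjusted p = 0.364) and 0.54 ± 0.276 for Apoc1 (adjusted p = 0.398). Without the 4 higher-numbered HFD libraries it was 1.11 for Apoe (adjusted p = 0.00790), 1.22 for Apoc1 (0.0105) and 1.01 for Apoc2 (0.00332), and 16.3% of all genes were then called. Without the 4 lower-numbered HFD libraries it was -0.15 for Apoe, -0.16 for Apoc1 and 0.26 for Apoc2, and none was called. Within controls the diet difference was 0.75 ± 0.354 for Apoe (adjusted p = 0.390) and 0.73 ± 0.391 for Apoc1 (adjusted p = 0.448), and within mutants it was 0.30 ± 0.354 and 0.35 ± 0.391. Without the higher-numbered HFD libraries, Apoa4, Apoc1, Apoc2 and Apoe were called within controls beside 11.1% of all genes. Without control mouse 4 on HFD, Apoa4 (1.42), Apoc2 (1.22) and Apoe were called within controls beside 7.28% of all genes.

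On HFD, Apoe was lower in mutants than in controls by 0.45 ± 0.354 on the log2 scale (adjusted p = 0.678), Apoc1 by 0.58 ± 0.391 (0.646) and Apoa2 by 0.24 ± 0.238 (0.735). Of the 4 lower-numbered HFD libraries 3 are controls, and of the 4 higher-numbered 3 are mutants. With the run as a term these differences were 0.18, 0.11 and 0.03 in the opposite direction, with adjusted p = 1.0 for each. Within the lower-numbered libraries the mutant (54878 for Apoe) lay inside the control range, and within the higher-numbered ones all 3 mutants (21617 to 30177) were above the control (20323). When each library was weighted by how closely it followed its group mean, Apoe, Apoc1 and Apoa2 were called lower in mutants, in a fit that called 30.9% of all genes. The lowest weights were 0.228 for control mouse 4 on HFD and 0.329 for mutant mouse 1 on HFD, against 0.908 to 2.1 in the other HFD libraries. These are the only higher-numbered control and the only lower-numbered mutant on HFD. Genotype and run were therefore even harder to tell apart in the weighted fit. The same weights called Apoa4, Apoe, Apoc1, Apoc2 and Apoc3 for diet in controls, with 17.8% of all genes.

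**Figure D3:**
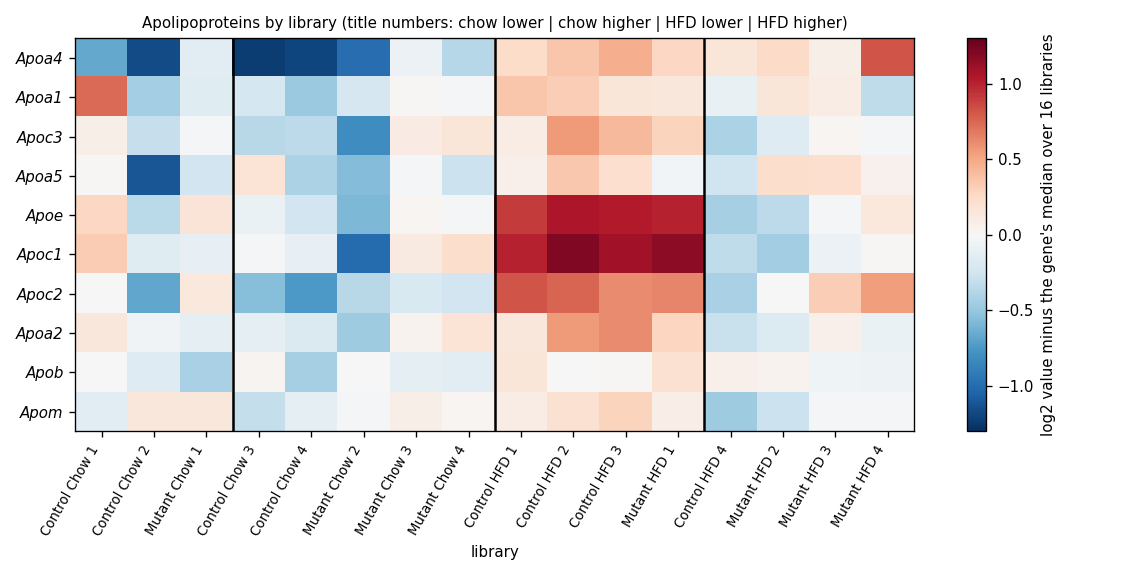
Log2 value of each of the 10 genes (rows) in each library (columns, ordered by the run of title numbers) minus the median of that gene over 16 libraries, with red above and blue below the median. Apoe, Apoc1 and Apoc2 are red in the 4 lower-numbered HFD libraries, while Apoa4 is above its median in all 8 HFD libraries.

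Apoa2, an HDL protein, was 36548, 31994, 30367 and 29117 in controls and 30578, 24055, 34252 and 37556 in mutants on chow. On HFD it was 36598, 48438, 50711 and 27108 in controls and 40048, 29230, 34655 and 31072 in mutants. Its highest 3 values were again in lower-numbered HFD libraries, and its lowest was in mutant mouse 2 on chow. The lower-numbered HFD libraries held 36598 to 50711 and the higher-numbered 27108 to 34655 (1.45-fold with genotype in the fit, adjusted p = 0.105, limma). The average diet difference of Apoa2 was 0.21 ± 0.168 (adjusted p = 0.590), and the ratio of Apoc3 to Apoa2 stayed between 0.232 and 0.313 in the 16 libraries.

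Apob and Apom varied least. Apob ranged 1.55-fold, from 679 to 1049, with means of 838 ± 119 and 821 ± 99.3 on chow and 959 ± 44.6 and 939 ± 80.7 on HFD in controls and mutants (SD, n = 4). Its average diet difference of 0.20 ± 0.0904 did not pass the test over all genes (adjusted p = 0.337, limma). Apom ranged 1.69-fold, from 277 in control mouse 4 on HFD to 467 in control mouse 3 on HFD, and its average diet difference was 0.01 ± 0.107 (adjusted p = 0.971).

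Over the 10 genes, the average diet difference was positive for 10, with a median of 0.35 on the log2 scale, beside a median of -0.01 over all tested genes. The share of all genes with a positive difference was not computed. Without the lower-numbered HFD libraries it was negative for Apoa2 (-0.11), Apoc1 (-0.164), Apoc3 (-0.0478), Apoe (-0.147) and Apom (-0.26), and positive for the others. In the main fit an unadjusted p under 0.05 was reached by 4 of the 10, Apoa4, Apoc2, Apoa5 and Apob, beside 14.1% of all genes. Within controls the median was 0.41, within mutants it was 0.25, and 2 genes reached an unadjusted p under 0.05 in each, beside 12.9% and 6.86% of all genes. For genotype, the median was 0.03 on chow and -0.11 on HFD, beside 0.02 and 0.02 over all genes, and 1 of the 10 on chow (Apoa4) and 0 on HFD had an unadjusted p under 0.05, beside 6.08% and 8.60% of all genes. The genes share libraries and clusters, so these counts are not independent.

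**Figure D4:**
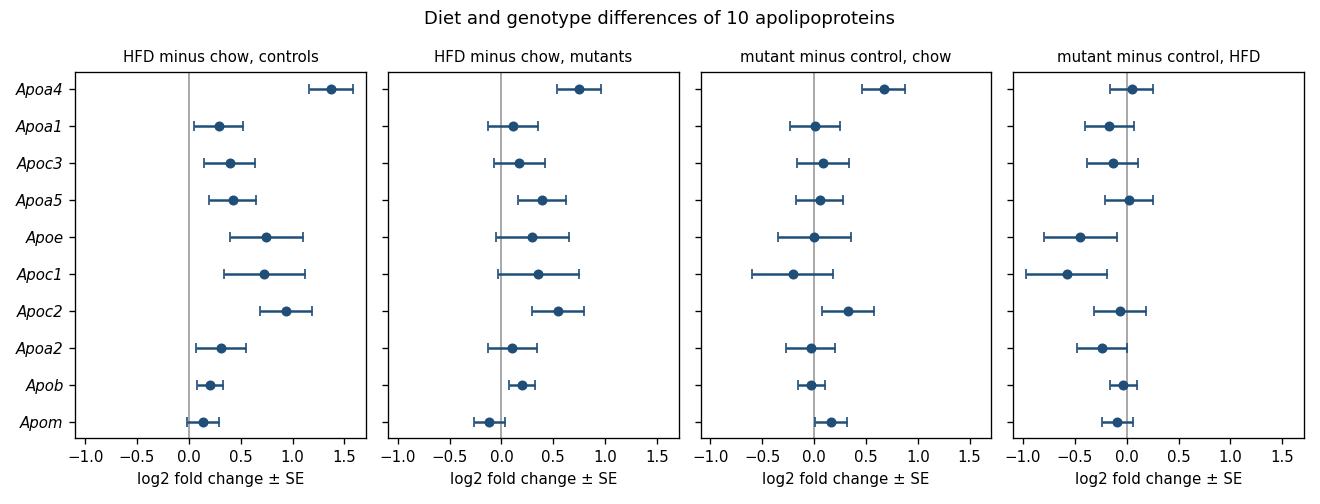
Log2 fold changes with SE (horizontal axes) of the 10 genes (vertical axis) for diet within each genotype and genotype within each diet, from 1 limma fit of 16 libraries. Apoa4 has the highest diet difference within each genotype (1.37 in controls and 0.75 in mutants) and the highest genotype difference on chow (0.67).

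The genes whose values most resembled Apoa4 over 16 libraries were Sytl1 (Pearson r = 0.867), Sema5b (0.866), Slc26a10 (0.842), Apoc2 (0.821), Gm45674 (0.816) and Pepd (0.811). Apoc2 was thus the 4th most alike of all tested genes, while Apoc3 (0.622), Apoa5 (0.612), Apoe (0.553) and Apoa1 (0.383) came well below. After group means were removed, genes with high values were Szrd1 (0.841), Lrfn4 (0.813), G0s2 (0.810), A930035D04Rik (0.808) and Sema5b (0.806), with Apoc3 at 0.649 and Apoc2 at 0.503. Sema5b was named by both measures. Several of these genes had low values, near the filter limit of 1. The chow and HFD medians were 1.79 and 3.48 for Sytl1, 0.611 and 2.72 for Sema5b, and 0.495 and 1.3 for Slc26a10. Those of A930035D04Rik were 1.04 and 0.844. The correlations are a description over libraries that share their diets and runs.

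Lists of the wider lipoprotein machinery are read beside the 0.134% of all genes called and the 14.1% at an unadjusted p under 0.05. For the average diet difference, limma called 0 of 16 genes of lipoprotein assembly and secretion (2 at an unadjusted p under 0.05), 0 of 16 receptor and uptake genes (5), 0 of 16 lipases and HDL remodelling genes (5), 0 of 22 regulators (4), 0 of 15 other apolipoproteins and HDL proteins (1) and 0 of 15 Creb3l3 and steatosis genes (4). None of these lists had a called gene in the other comparisons either. Mttp, which loads lipid onto Apob, had means of 117 ± 12 and 104 ± 20.1 in controls on chow and HFD, and 124 ± 25.0 and 123 ± 31.4 in mutants. Creb3l3 had means of 246 ± 66.4 and 255 ± 41.9 in controls on chow and HFD, and 216 ± 60.6 and 227 ± 21.1 in mutants. Both genes were named after their values had been seen. The smallest p of the regulators was that of Srebf2, the activator of cholesterol synthesis genes (-0.59 ± 0.131, adjusted p = 0.088), followed by Srebf1, which drives fatty acid synthesis (0.58 ± 0.180, adjusted p = 0.181). Among receptor and uptake genes, Cd36, a fatty acid transporter, had a difference of 0.38 ± 0.125 (adjusted p = 0.208). The values for Cideb, which helps lipidate nascent particles, were 0.25 ± 0.0745 (adjusted p = 0.166), and for Angptl8, an inhibitor of lipoprotein lipase, 0.76 ± 0.277 (adjusted p = 0.239).

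Genes beside the clusters were also not called for diet. None of 7 tested neighbours on chromosome 9 passed (2 at an unadjusted p under 0.05), with Sidt2 at -0.28 ± 0.0842 (adjusted p = 0.170) and Zpr1 at 0.47 ± 0.180 (adjusted p = 0.264), and none of 8 on chromosome 7 passed (1 at an unadjusted p under 0.05), with Gemin7 at 0.29 ± 0.137 (adjusted p = 0.354).

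Because Apoa4 is an intestinal gene, enterocyte markers were read beside it. Of 15 listed enterocyte genes 4 had rows, namely Fabp2, Slc5a1, Anpep and Lgals4. Their summed values were 128 to 223 in controls and 109 to 188 in mutants on chow, and 228 to 283 and 223 to 263 on HFD, so the sum was higher on HFD, as Apoa4 was. For the average diet difference, limma called 1 of these 4 genes (Fabp2), and 3 had an unadjusted p under 0.05. Over all genes these shares were 0.134% and 14.1%. On the log2 scale, averaged over genotypes, the other 3 genes differed less than Fabp2. Lgals4 had means of 20.6 ± 6.23 and 17.7 ± 5.89 in controls on chow and HFD and 13.3 ± 9.56 and 14.3 ± 5.01 in mutants. Anpep was 69.6 ± 9.17 and 97.4 ± 11.5 in controls and 74.2 ± 10.2 and 79.3 ± 4.54 in mutants. Slc5a1 lay at or below 2.33 in every library. Its means were 1.05 ± 0.227 and 2.1 ± 0.323 in controls and 1.31 ± 0.337 and 1.34 ± 0.219 in mutants. In controls its HFD values (1.63 to 2.33) all lay above its chow values (0.784 to 1.26), while in mutants the diets overlapped. The pseudocount of 1 understates the log2 difference of so low a gene. Within controls the log2 diet difference was 0.48 ± 0.124 for Anpep (adjusted p = 0.199, limma) and 0.60 ± 0.142 for Slc5a1 (adjusted p = 0.172). Fabp2, a fatty acid binding protein of enterocytes that liver also expresses, rose on HFD by 1.20 ± 0.186 on the log2 scale (adjusted p = 0.0256), from means of 75.1 ± 25.8 and 58.0 ± 25.9 to 147 ± 8.85 and 144 ± 22.1 in controls and mutants (SD, n = 4). The brush-border markers Vil1, Lct, Sis, Alpi and Rbp2 and the intestinal factors Cdx1 and Cdx2 had no row in the table used here. Kupffer cell and macrophage genes (0 of 14 called), stellate cell genes (0 of 11), biliary genes (0 of 4), adipocyte genes (0 of 2), red blood cell genes (0 of 5) and pancreas genes (0 of 1) did not pass for diet in limma, and 1, 2, 0, 1, 1 and 0 of them had an unadjusted p under 0.05. Of acute-phase genes 0 of 19 passed (0 at an unadjusted p under 0.05), and of hepatocyte genes 0 of 13 (3). The part of other cell types in the Apoa4 difference was not tested.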

How the data were processed

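Total RNA of 16 mouse livers, 1 library per mouse, was purified with a column kit, turned into barcoded libraries (NEBNext Ultra II) and sequenced on an Illumina NovaSeq. Per the labels and methods, reads were assigned to mouse transcripts (mm10) with kallisto and tested per gene with sleuth. Tool versions and annotation release are not given in the sources used here. The authors deposited 1 signal per gene and library, read here as TPM rescaled between libraries, since values are fractional and column totals differ. This scale keeps no depth, so no counting interval was computed.

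Groups came from the genotype and treatment labels. Replicates were numbered in sample order and are not paired. Values were tested as log2(value + 1) with limma 3.58.1 in R 4.3.3, keeping genes at 1 or more in at least 4 libraries, in 1 fit of 4 group means with a variance trend, over 7 contrasts. P-values were adjusted by Benjamini-Hochberg over all 12704 genes at a threshold of 0.05. Fold changes carry the pseudocount of 1, which understates changes of low genes. Apoa4 was also tested by exact permutation with scipy 1.17.1. The code was tested on simulated data. The limma p-values set group differences against the spread between mice within the 4 groups. Mice were treated as independent, and the main fit held no term for the runs of title numbers.

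The 10 genes and all 17 gene lists were chosen with earlier results of these data known. Every one of the 10 genes was reported. From each list the text names called genes by p, at most 4 per contrast, or otherwise the 2 with the smallest p, and the 6 genes most correlated with Apoa4. Some genes that this rule names are not reported here.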

Additional observations from a re-analysis of the deposited data

Results flagged for a closer look

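In 40 combinations of a gene and a group of 4 mice, 5 had 1 mouse far from the other 3 by Dixon's criterion, where chance alone gives about 1 in 20. Of these, 3 came from control mouse 1 on chow, which had the highest value of its group for Apoa1 (12739), Apoa4 (1143) and Apoc3 (10299). These lie on chromosome 9, but that mouse was also highest of its group for Apoa2 (36548), Apoe (32938), Apoc1 (18956) and Apoc2 (510). It was not highest for Apoa5 (1260 against 1413), also on chromosome 9, nor for Apob or Apom. Control mouse 4 on HFD had a low Apoe value (20323 against 51297 to 56760 in the other 3), and it is the only control among the higher-numbered HFD libraries. Mutant mouse 4 on HFD had a low Apoa1 value (6091 against 8172 to 8524). The cause of these values was not tested.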

How the results depend on the processing

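The number of the 10 genes called was recomputed with other settings (another pseudocount, other filters and scalings, library weights, the run of title numbers as a term, fits of the compared groups alone, each mouse left out) and under 3 chosen after seeing the data. For the average diet difference it was 1, and it became 2 with library weights (Apoa4 and Apoc2, beside 680 of all 12704 genes), 0 without the 4 lower-numbered HFD libraries (10) and 4 without the 4 higher-numbered ones (2067). With 1 mouse left out it ran from 0 to 2 (up to 398). For diet in controls it was 0, and it became 5 with library weights (beside 2264 of all genes), 1 in a fit of the compared groups alone (Apoa4, of 4 genes), 1 without mutant mice 1 and 2 on chow (Apoa4, of 3 genes) and 4 without the higher-numbered HFD libraries (1407). With 1 mouse left out it ran from 0 to 3 (up to 925). For genotype on HFD it was 0, and it became 3 with library weights, beside 3926 of all genes. The other comparisons had 0 called genes among the 10 in every setting run.

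The Apoa4 diet difference kept its direction in every setting, averaged and within each genotype, as did its genotype difference on chow. Several differences without a call changed sign. Without the lower-numbered HFD libraries the average diet difference was -0.11 for Apoa2, -0.164 for Apoc1, -0.0478 for Apoc3, -0.147 for Apoe and -0.26 for Apom, and that within controls was -0.323 for Apoe and -0.346 for Apoc1. The Apom average was -0.0189 when scaled on genes outside the 20 most abundant, and -0.0325 to 0.0929 with 1 mouse left out. The Apoc1 diet difference in mutants was -0.11 with library weights and -0.0118 without mutant mice 1 and 2 on chow. Genotype on HFD gave 0.18 for Apoe, 0.115 for Apoc1 and 0.0291 for Apoa2 with the run as a term. It gave 0.354, 0.162 and 0.22 for these genes without the lower-numbered HFD libraries, and 0.00622 for Apoe and 0.0676 for Apoc1 without the higher-numbered ones. For Apoa4 it was -0.00413 with library weights, -0.0895 without the higher-numbered HFD libraries and -0.109 to 0.14 with 1 mouse left out. Where a fit without the lower- or higher-numbered HFD libraries left 1 mouse in a group, that mouse was assumed to vary like the others. The cause of these changes was not tested.

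Depth is unknown, so precision rests on 4 mice per group, and runs of title numbers cannot be told apart from diet.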
